A study of Oryza sativa with 2 samples.

Results

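Genes that move metals across membranes, or bind them inside the cell, were read in early rice endosperm. The genes were those whose symbol or synonym in the rice gene table begins with NRAMP, YSL, IRT, ZIP, HMA or MTP and a number, or with MT, an optional hyphen and a number. The table held 55 such genes, and 46 of them could be read on the array through a probe set listed for that gene alone, of 17905 genes read in the same way. They comprised 15 YSL, 8 ZIP, 7 MT, 6 NRAMP, 5 MTP, 3 HMA and 2 IRT genes. The remaining 9 genes, YSL2, YSL3, YSL17, ZIP9, ZIP10, HMA9, MTP8, MT21A and MT4B, had no such probe set and were not analysed here.

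The series held 1 group of 2 samples of endosperm from the japonica rice cultivar Zhonghua11, taken 2 days after pollination. The tissue was picked by hand under a dissecting microscope, at a stage that the labels place before cell walls form between the nuclei. Each sample was hybridized to 1 Affymetrix rice array, and the aim given was the expression profile of this stage. With no second tissue, stage or treatment, the values are levels and their spread between the 2 arrays, and no test between groups was possible. Whether different plants gave the 2 samples is not stated, so the SDs may hold technical variation alone, and the number of arrays limits their precision.

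Plants need iron, zinc, manganese and copper as cofactors of enzymes, and each is harmful in excess. ZIP and IRT proteins carry zinc and ferrous iron into the cytosol, NRAMP proteins carry manganese, iron and other divalent metals, and YSL proteins carry metals bound to nicotianamine or to mugineic acids. HMA proteins are ATP-driven pumps that move copper, zinc or cadmium out of the cytosol, MTP proteins exchange metals for protons and load vacuoles or other compartments, and metallothioneins (MT) are small cysteine-rich proteins that bind zinc and copper. The endosperm has no vascular link to the mother plant, so metals reach it across membranes from the surrounding maternal tissue.

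Each probe set has 1 deposited value per array, a linear signal intensity. A gene was called above background on an array where its signal passed the 95th percentile of the 64 probe sets against reporter and transgene sequences, which was 52.7 for array 1 and 37.9 for array 2. Probe sets differ in how well they bind, so an order by signal is an order of probe sets and not of transcript amounts. All 8 endosperm markers that could be read were above background on both arrays, among them AGPS2 and SSI of starch synthesis, the sugar transporters SWEET11 and SWEET4, and NF-YB1. Of 4 markers of seed coat, nucellus and embryo, MADS29 and MADS21 were above background on both arrays, MADS13 on array 2 alone and OSH1 on neither. Summed, these 4 probe sets read 496.2 on array 1 and 509.5 on array 2. Of the endosperm markers, RSR1 (mean log2 7.07) and MADS6 (5.97) had dimmer probe sets than the other 6, whose lowest mean was 11.46 for NF-YB1. All 4 green tissue genes read, CAB2R, RCABP89, OEE3 and RBCS, were above background on both arrays, with summed signals of 3237 and 3530. So were both late seed maturation genes read, VP1 (7.77) and LEA3 (7.18), given as mean log2 signals. The part of other tissues in the levels below was not tested, and in bulk tissue fewer cells of a type and less RNA per cell cannot be told apart.

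Most of the metal genes read gave a signal, but few gave a strong one. Of 46 genes, 29 (63.0%) were above background on both arrays, against 74.1% of all genes. A further 3 passed on array 2 alone (4.12% of all genes) and 1 on array 1 alone (1.5% of all genes). The other 13 passed on neither, as did 3636 of all 17905 genes. Mean log2 signals had a median of 6.59 over the metal genes and 8.58 over all genes. On both arrays 7 of the 46 (15.2%) stood at 10 or more times background, against 45.2% of all genes. They were MT2C, MTP1, YSL6, NRAMP6, YSL16, YSL12 and ZIP6, from 5 of the 7 families. The probe set read for MT-2 was not among them, though another of its probe sets read 7045 on array 1 and 7008 on array 2. In the probe sets read, none reached the top 5% of genes by signal on both arrays, where 4.72% of all genes lay. That range began at a log2 signal of 13.00 on array 1 and 13.05 on array 2. A probe set listed for both MT4A and another gene, not used here, lay within it and is given at the end.

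**Figure D1:**
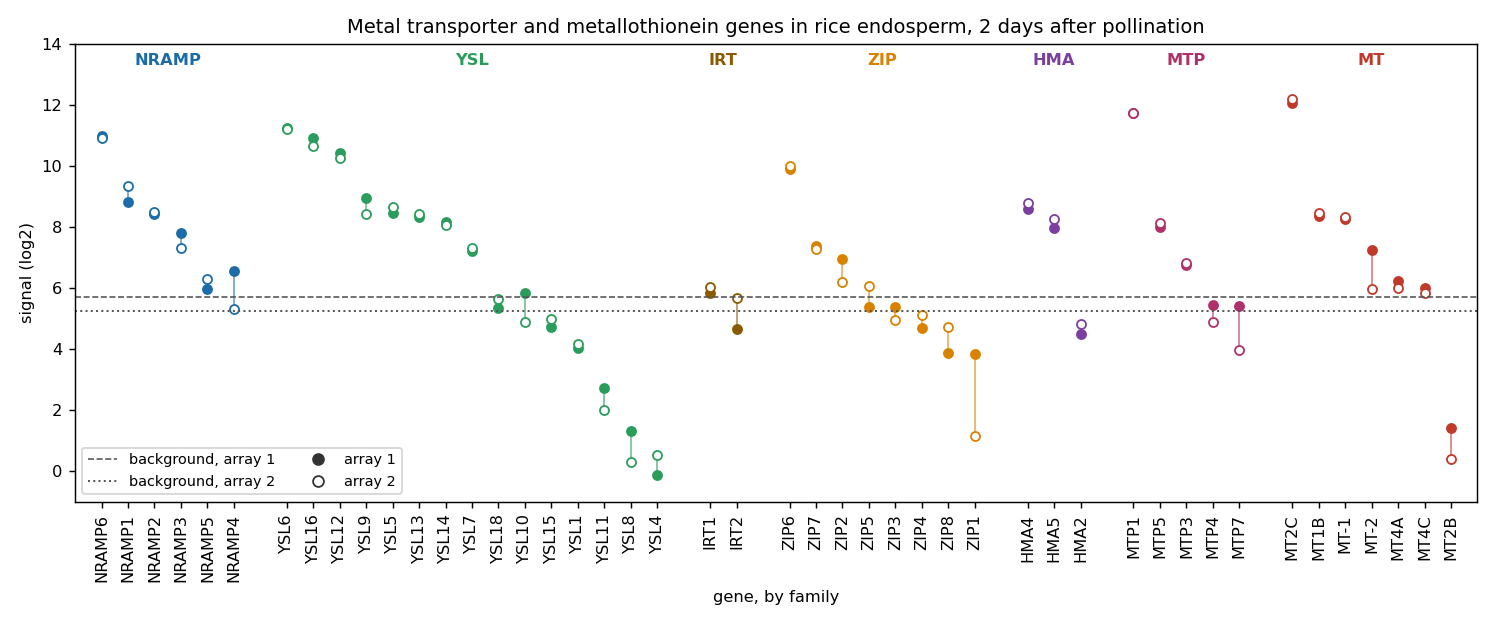
Log2 signal of the 46 genes on array 1 (filled points) and array 2 (open points), grouped by family and ordered within a family by mean signal, with each array's background as a dashed or dotted line. On each array all 6 NRAMP genes lie above that array's own line, NRAMP4 only just so on array 2. The YSL and ZIP families run from bright probe sets to ones far below background.

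All 6 NRAMP genes were above background on both arrays, against 74.1% of all genes, with a family median log2 signal of 8.01. For NRAMP4 this held in only 1 of its 5 probe sets. NRAMP6 had the brightest probe set of the family, with signals of 2022 on array 1 and 1949 on array 2 (mean log2 10.96 ± 0.04, SD, n = 2). NRAMP1, a transporter of iron and cadmium, read 447.8 and 643.9, a difference of 0.52 on the log2 scale with array 2 higher. The arrays thus differed more for NRAMP1 than for NRAMP2, which read 340.4 and 363.2 (8.46 ± 0.07). NRAMP3, which distributes manganese at the stem nodes, read 221.3 and 160.5 (7.56 ± 0.33). NRAMP5, the main route of manganese and cadmium into rice roots, was near background at 62.6 and 78.0, which is 1.19 times background on array 1 and 2.06 times on array 2. NRAMP4 had the lowest mean of the family, with signals of 94.6 and 39.5, the second of which was 1.04 times background. It is the chromosome 1 gene that the table lists under this name, which may not be the gene called NRAMP4 elsewhere. The family therefore held bright, moderate and barely detected probe sets side by side.

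The YSL family was mixed: 8 of 15 genes were above background on both arrays, against 74.1% of all genes, with a family median of 7.28. YSL6, which transports manganese bound to nicotianamine, was the brightest, at 2412 on array 1 and 2361 on array 2 (11.22 ± 0.02). YSL16, a carrier of copper bound to nicotianamine and of iron complexes, read 1930 and 1600 (10.78 ± 0.19). YSL12 read 1389 and 1236 (10.36 ± 0.12), though a second probe set of this gene was below background. The 3 probe sets read for these genes were at least 26.3 times background on each array. A middle group of 5 genes, YSL9, YSL5, YSL13, YSL14 and YSL7, had mean log2 signals from 7.28 for YSL7 to 8.69 for YSL9. Of these, YSL9 differed most between the arrays, with 493.4 on array 1 and 345.0 on array 2. The arrays lay closer for YSL5 (352.7 and 402.5), YSL13 (318.6 and 343.9), YSL14 (284.3 and 269.7) and YSL7 (149.4 and 160.6), which differed by at most 0.19 on the log2 scale. YSL9 and YSL13 are carriers of iron complexes.

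The other 7 YSL genes did not pass background on both arrays. YSL18, a carrier of ferric iron bound to deoxymugineic acid in flowers, passed on array 2 alone, with signals of 40.4 on array 1 and 50.4 on array 2. YSL10 passed on array 1 alone, with 57.0 on array 1 and 29.9 on array 2. YSL15, which takes up ferric iron bound to deoxymugineic acid in roots, read 26.5 and 31.9 and passed on neither. YSL1 (4.10) and YSL11 (2.37), given as mean log2 signals, lay lower still, and YSL8 read 2.51 and 1.22. The lowest probe set of the family was that of YSL4, at 0.919 on array 1 and 1.45 on array 2, a small fraction of background. For the 5 genes that passed on neither array, transcripts were not detectable with the probe sets used.

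The ferrous iron and zinc importers of the IRT and ZIP families had 4 of 10 genes above background on both arrays, against 74.1% of all genes, and a further 2 on array 2 alone. IRT1, the ferrous iron importer of rice roots, was just inside the threshold at 56.6 on array 1 and 65.7 on array 2, 1.07 and 1.73 times background. IRT2 passed on array 2 alone, with 25.1 on array 1 and 51.5 on array 2. Both IRT genes were thus at the edge of what the arrays could show. Among the ZIP genes, ZIP6 stood apart at 958.7 and 1024 (9.95 ± 0.07), at least 18.2 times background. ZIP7, a zinc transporter for which the table also lists the name ZIP3, read 166.9 and 156.4 (7.34 ± 0.07). ZIP2 read 123.5 and 72.6 (6.57 ± 0.54). Of the 8 ZIP genes, only these 3 passed on both arrays.

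ZIP5, a root zinc importer also listed as ZIP2, passed on array 2 alone, with 41.2 on array 1 and 67.5 on array 2. ZIP3 of chromosome 4, which unloads zinc at the stem nodes, read 41.3 and 31.0 and was just under the threshold on both arrays. ZIP4 (4.91) and ZIP8 (4.31, also listed as ZIP1), given as mean log2 signals, were also below it. The dimmest was ZIP1 of chromosome 1, at 14.2 on array 1 and 2.23 on array 2. The ZIP family median was 5.44, close to the 5.55 of the IRT family.

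Of the metal pumps, HMA4 and HMA5 were detected on both arrays and HMA2 was not, which is 2 of 3 against 74.1% of all genes. HMA4, a copper pump of the vacuole, read 387.3 on array 1 and 445.2 on array 2 (8.70 ± 0.14). HMA5, which loads copper into the xylem, read 249.0 and 310.1 (8.12 ± 0.22). The table also lists OsHMA5 as a synonym of HMA9, which was not read, so the name is not unique. HMA2, a zinc and cadmium pump of the nodes, read 22.3 and 28.4 and was below background on both arrays. All 3 probe sets read higher on array 2, by 0.20 to 0.35 on the log2 scale.

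MTP1, which loads zinc into vacuoles, had the closest pair of values of all the metal genes, 3426 on array 1 and 3427 on array 2 (11.74 ± 0.00). MTP5 read 253.3 and 282.7 (8.06 ± 0.11) and MTP3 read 107.2 and 113.1 (6.78 ± 0.05). These 3 of the 5 MTP genes were above background on both arrays, against 74.1% of all genes. MTP4 read 43.2 and 29.5, and MTP7 read 42.5 and 15.7, so both were under background on each array.

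Metallothionein signal depended on which probe set stood for the gene. With the probe set chosen by suffix, 6 of 7 MT genes were above background on both arrays, against 74.1% of all genes. The median log2 signal was 6.61. MT2C had the brightest probe set of those read, at 4322 on array 1 and 4739 on array 2 (12.14 ± 0.09). MT1B read 327.9 and 350.4 (8.41 ± 0.07), and MT-1, the MT gene on chromosome 11, read 304.9 and 324.0 (8.30 ± 0.06). These 3 genes had values on the arrays within 0.13 log2 of each other. MT4A read 74.5 and 64.1 (6.11 ± 0.15) and MT4C read 63.9 and 56.6 (5.91 ± 0.12), both under 2 times background. MT-2 read 152.6 on array 1 and 62.1 on array 2, and MT2B read 2.68 and 1.31. The gene table lists the synonym OsMT2c for MT2B and OsMT2b for MT2C, so the names used here follow the unprefixed synonyms.

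Other probe sets of MT-2 and MT2B gave a different picture from the ones read. For MT-2, the probe set with suffix _s_at read 7045 on array 1 and 7008 on array 2, brighter than any of MT2C, and that with suffix _x_at read 4320 and 4480. A second _at probe set read 16.8 and 22.5, below background, so the 4 probe sets of this gene spanned 361.6-fold. For MT2B, the 3 other probe sets read 266.1 and 255.2 (_a_at), 182.0 and 119.1 (_x_at) and 152.8 and 249.8 (_x_at). All 3 were above background on both arrays, where the _at probe set was on neither. In Affymetrix naming _s_at and _x_at mark probe sets whose probes can match more than 1 sequence, and whether related metallothionein transcripts added to these signals was not tested. MT2C, which had no _at probe set, was bright in all 5 of its probe sets, each an _a_at or _x_at one. They ranged from a mean log2 signal of 9.33 to 12.14, and the same limit holds for those with suffix _x_at.

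**Figure D2:**
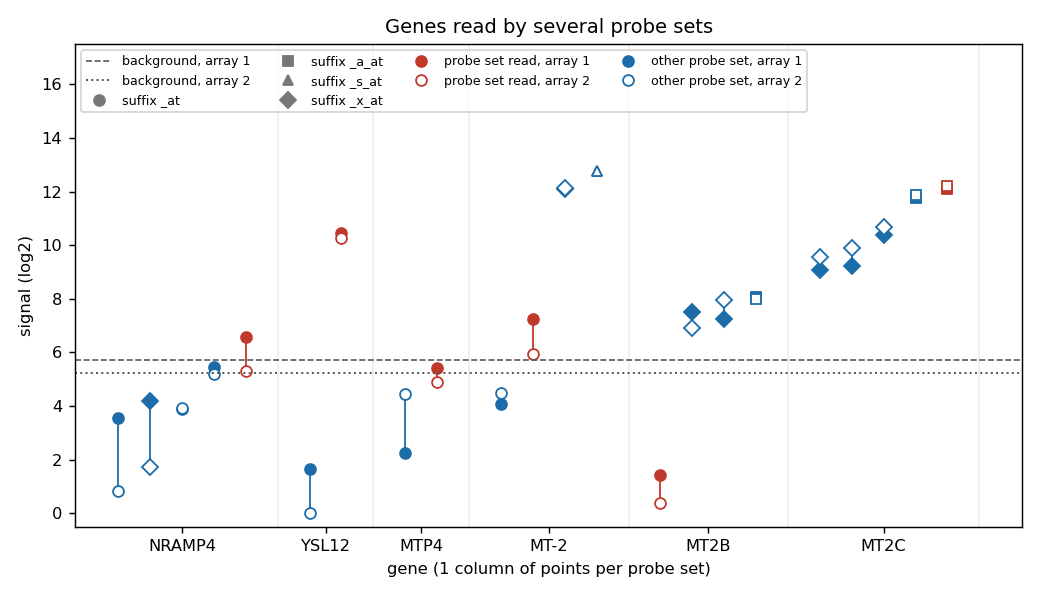
Log2 signal on array 1 (filled) and array 2 (open) of every probe set of the 6 genes with several, with the probe set read in red, the others in blue and the marker shape giving the suffix. The probe set read for MT-2 lies far below its _s_at and _x_at probe sets and above its other _at probe set. That read for MT2B lies far below all others of the gene, while all 5 of MT2C lie well above background.

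Of the 46 genes, 40 had 1 probe set and 6 had several, 62 probe sets in all. In 5 of the 6, the probe sets lay over 4-fold apart, against 58.9% of all genes with several. NRAMP4 had 5 probe sets, and the one read was the only one above background on both arrays; its others read 44.4 on array 1 and 36.7 on array 2, 14.7 and 15.3, 18.4 and 3.27, and 11.8 and 1.79. YSL12 had a second probe set at 3.11 on array 1 and 1.02 on array 2, while the one read was bright. The MTP4 probe sets were both below background. With all probe sets of a gene averaged, NRAMP4 and YSL12 were no longer above background on both arrays.

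The 2 arrays gave close values for bright metal genes and scattered for dim ones. Of the 29 genes above background on both arrays, 24 (82.8%) differed by at most 0.5 on the log2 scale, against 91.2% of all such genes. Their median difference, array 2 minus array 1, was 0.08, and that of all such genes was -0.01. The 7 genes at 10 or more times background had SDs between the arrays from 0.00 to 0.19. The 15 genes at 2 to under 10 times background had SDs from 0.05 to 0.37, and the 7 under 2 times background from 0.12 to 0.92. Among the 17 genes not above background on both arrays the median SD was 0.50, against 0.65 for all such genes. The metal genes, like all genes, thus had wider SDs where the signal was low.

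Only MT-2 and NRAMP4 were above background on both arrays and differed by over 2-fold between them, 2 of 29, where 0.844% of all such genes did. Both were dimmer on array 2: the log2 difference was -1.30 for MT-2 and -1.26 for NRAMP4. Of all genes above background on both arrays, 0.55% were over 2-fold lower on array 2 and 0.294% over 2-fold higher. The gap of MT-2 was not seen in its bright probe sets, whose differences were -0.01 (_s_at) and 0.05 (_x_at). For NRAMP4 no other probe set was above background on both arrays to compare. Among metal genes not above background on both arrays, 5 more were over 2-fold apart. ZIP1 (-2.67), MTP7 (-1.43), YSL8 (-1.04) and MT2B (-1.04) were below background on both arrays, and IRT2 (1.03) was above it on array 2 alone. The share of all such genes over 2-fold apart was not counted. Within 0.5 on the log2 scale lay 6 of these 17 metal genes (35.3%), against 30.1% of all such genes.

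**Figure D3:**
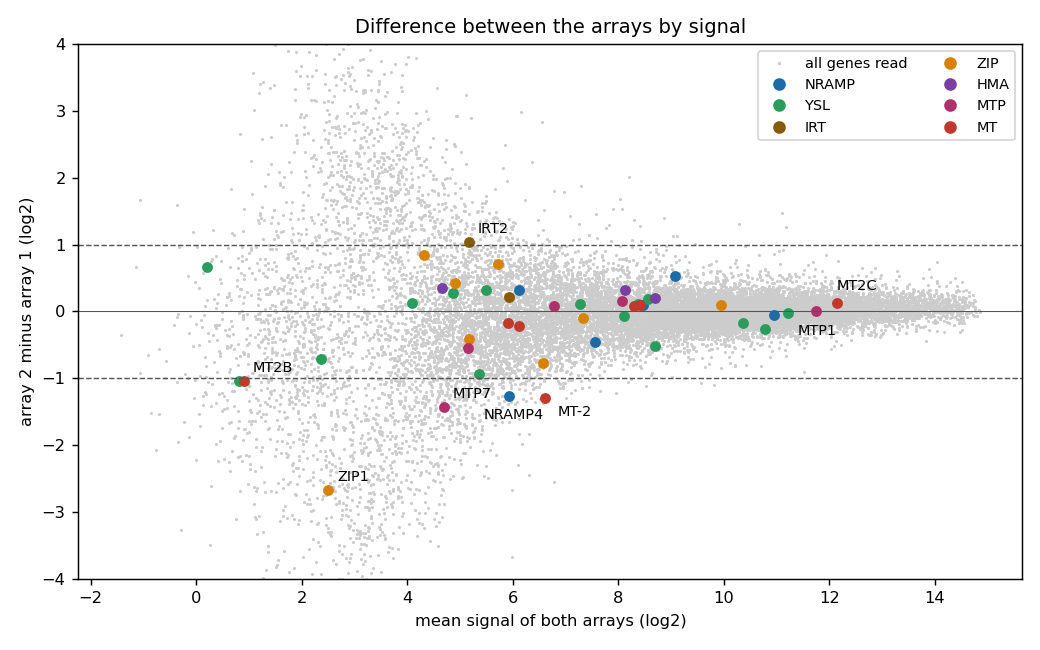
Log2 difference between the arrays (array 2 minus array 1) against the mean log2 signal, for all 17905 genes read (grey) and the 46 metal genes (coloured by family), with dashed lines at 2-fold. MT-2 and NRAMP4 lie below the lower line at low signal and the bright metal genes lie near 0; 105 genes with a difference beyond 4 are outside the plotted range.

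Many of these genes sit in runs of relatives, and neighbours did not always share a detection call. In the gene order of assembly ASM3414082v1, 8 pairs of the 55 genes were adjacent, with 0 protein-coding genes between them. In 5 of the pairs both genes were read. The same count over all adjacent genes was not made, and 74.1% of all genes were above background, so the calls below describe these pairs only. Both were above background in YSL6 and YSL5, in YSL13 and YSL12, and in YSL9 and YSL16, all on chromosome 4. Just 1 of the pair was in the other 2: YSL7 but not YSL8 on chromosome 2, and YSL12 but not YSL11 on chromosome 4. YSL12, at 1389 and 1236 in the probe set read, thus lay beside YSL11, whose signals were 6.64 on array 1 and 4.03 on array 2. The second probe set of YSL12, at 3.11 and 1.02, was also below background, so this contrast holds for the probe set read only. IRT2 and IRT1 had 1 gene between them on chromosome 3, as did MT4A and MT4C on chromosome 12, and NRAMP5 and NRAMP1 had 2 between them on chromosome 7. Chromosome 4 held 10 of the 55 genes, and no other chromosome held more than 8.

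Genes that make metal chelators, sense iron or carry other metals were read beside these families. The list held 46 names, of which 24 had no gene of their own in the table, 3 had no single-gene probe set, and 3 (TOM1, TOM2 and bZIP50) were left out because the entry of that name could not be tied to the metal gene. Of the 16 genes read, 12 were above background on both arrays, a share close to the 74.1% of all genes, and the median log2 signal was 9.29 over the 16 and 8.58 over all genes. The list was chosen with earlier results of these data known. Nicotianamine synthase makes the chelator that YSL proteins carry, and its genes NAS1 (2822 on array 1 and 2340 on array 2, mean log2 11.33 ± 0.19) and NAS3 (3931 and 2972, 11.74 ± 0.29) were bright. NAS2 was below background on both arrays, at 18.5 and 11.8. NAS1 and NAS2 are close relatives, and cross-binding between their transcripts was not tested. NAAT1, the nicotianamine aminotransferase that leads on to mugineic acids, read 2442 and 3086 (11.42 ± 0.24). The chelator genes thus included bright probe sets, and so did YSL6 and YSL16, carriers of metals bound to nicotianamine. Of the genes named above as carriers of ferric iron bound to deoxymugineic acid, YSL18 passed on array 2 alone and YSL15 was below background. YSL9, YSL13 and YSL16, named as carriers of iron complexes, were above background on both arrays. Which complexes each YSL protein carries was not tested, so these calls do not set 1 kind of carrier against another.

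The iron-deficiency regulators IDEF1 (10.66 ± 0.01) and IRO3 (8.10 ± 0.06), given as mean log2 signals, were above background on both arrays. Of the vacuolar iron transporters, VIT2 read 887.2 on array 1 and 789.2 on array 2 (9.71 ± 0.12), while VIT1 was near background at 58.3 and 57.8. Of the copper transporters, COPT7 (10.34 ± 0.06) and COPT1 (8.32 ± 0.21) were above background and COPT2 (4.66 ± 0.50) and COPT3 (3.21 ± 2.09) were not. Of the cation and proton exchangers, CAX2 (9.87 ± 0.15), CAX1a (9.36 ± 0.26) and CAX3 (9.23 ± 0.00) were above background and CAX1b (4.56 ± 0.48) was not. In each of the NAS, COPT and CAX families, as in YSL and ZIP, some members were detected and others were not.

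**Figure D4:**
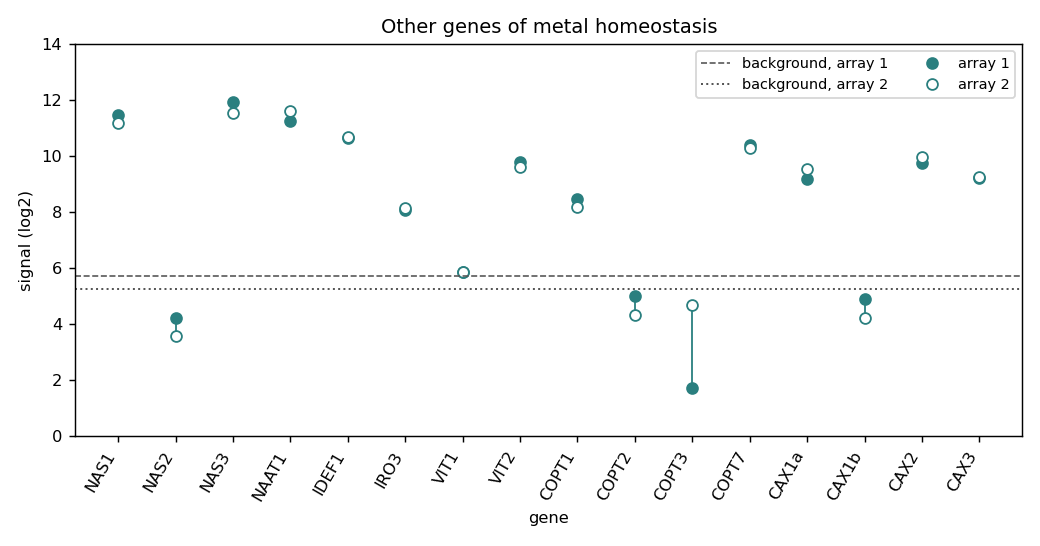
Log2 signal of 16 other metal homeostasis genes on array 1 (filled) and array 2 (open), with each array's background as a dashed or dotted line. NAS2, COPT2, COPT3 and CAX1b lie below both lines and VIT1 lies just above them.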

How the data were processed

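The authors deposited a linear signal intensity for each probe set on each array. Per the labels' protocols, cRNA was made with a 3′ IVT kit, which favours the 3′ ends of transcripts. The submitters' processing notes name MAS5 (version and settings: not given in the sources used here). Detection calls were not analysed. Trimmed means of both arrays were 499.9, which shows scaling array by array. For this work log2 was taken of the deposited intensities of 57194 rice probe sets, with no further normalization. Genes came from the platform annotation of 2016: 22436 probe sets had 1 gene, 95 several, and 34663 rice probe sets none listed. All 17905 genes were found by Entrez identifier in the table of assembly ASM3414082v1, used for names and gene order. Where a gene had several probe sets, 1 was read, chosen by suffix (_at, _a_at, _s_at, _x_at) and then by highest mean. SDs are between the 2 arrays. Every gene of the families is named; full values are given for the extremes of each family, all metallothioneins, genes over 2-fold apart, genes on 1 array alone and genes with discordant probe sets. The genes, lists and alternatives were chosen with earlier results of these data known. The choice of probe set, the count over 2-fold apart and quantile normalization were tested on simulated data, and the other steps were not. Alternatives covered the probe set, quantile normalization, an offset of 16, the background, a filter on dim genes and each array alone. Python 3.11.15, pandas 2.3.3, NumPy 2.4.6 and matplotlib 3.10.9 were used.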

Additional observations from a re-analysis of the deposited data

Results flagged for a closer look

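Metallothionein signal was also present in 2 probe sets that the comparisons above do not use, because the annotation lists each for several genes. The probe set shared by MT4C, MT4B and LOC4352564 read 99.0 on array 1 and 72.7 on array 2 (mean log2 6.41 ± 0.31, SD, n = 2), above background on both arrays. MT4B was read through no other probe set. The probe set shared by MT4A and LOC4327982 read 11667 on array 1 and 12478 on array 2 (13.56 ± 0.07), while the probe set of MT4A alone read 74.5 and 64.1. On both arrays the shared probe set was brighter than the log2 signals of 13.00 and 13.05 at which the top 5% of genes began. The signal of a shared probe set cannot be assigned to 1 of its genes. With 2 arrays no sample could be tested as standing apart from its group.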

How the results depend on the processing

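The count of genes above background on both arrays (29) stayed within 1.5 times under every alternative run, from 22 against the highest reporter signal (which lost MT-2, NRAMP4, ZIP2, IRT1, NRAMP5, MT4A and MT4C) to 32 on array 2 alone. The count over 2-fold apart (2) was 1 when each gene was read in its brightest probe set (NRAMP4), 1 with an offset of 16 (MT-2), and 0 with probe sets averaged or with the highest reporter as background. The median log2 signal of the 46 genes (6.59) was 7.03 with the brightest probe sets, 8.30 over genes above background, and 6.23 to 6.85 on single arrays. With the brightest probe sets or with probe sets averaged the MT median (6.61) was 8.30, and on single arrays it was 6.003 to 7.25. MT-2 rather than MT2C was the brightest gene when each was read in its brightest probe set. The IRT median was 5.24 on array 1 and 5.86 on array 2, and the ZIP median 5.37 and 5.60. With probe sets averaged the YSL median (7.28) was 5.59. With the offset it was 7.42 for YSL, 5.99 for IRT, 5.90 for ZIP and 6.98 for MTP, since an offset raises dim values most. Over genes above background it was 8.62 for YSL, 7.34 for ZIP, 8.41 for HMA and 8.06 for MTP, since dim genes were left out. The number of genes in the top 5% by signal was 0 under each alternative run. Of the 46 genes, the mean log2 signal moved by more than its SD in 23 with the offset, 6 with probe sets averaged, 2 with the brightest probe sets and 1 after quantile normalization. No paired analysis was possible because there was 1 group.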
